A study of Homo sapiens with 8 samples.

Results

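The genes described here are 9 members of the PARP family and DTX3L, the ubiquitin ligase that binds PARP9. They were taken by symbol from a table of 25918 gene models, and where a symbol had several models the one with the highest mean expression rank over the treatments was used. All 10 were found, and PARP10 alone had more than 1 model. They fall into 3 groups by textbook roles: the DNA damage enzymes PARP1, PARP2 and PARP3, the interferon-linked genes PARP9, DTX3L, PARP14, PARP10 and PARP12, and PARP4 and PARP8, which belong to neither.

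PARP enzymes transfer ADP-ribose from NAD+ to proteins and nucleic acids. PARP1 and PARP2 bind broken DNA, build chains of ADP-ribose there and recruit repair proteins, and PARP3 acts with them at double-strand breaks. Most of the PARPs linked to interferon add a single ADP-ribose, and their genes are known as interferon-stimulated genes in many cell types. N6-methyladenosine (m6A) is a methyl mark on mRNA that is laid down within a short sequence context, often with the core GGAC.

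The study mapped m6A in human cells labelled HepG2, a hepatocarcinoma line, under 4 treatments. One group was irradiated with 0.04 J per square centimetre of UV and left to recover for 4 h, and one had a heat shock of 43 degrees for 30 min, to which the recovery may also apply. Another was kept overnight with hepatocyte growth factor (HGF, which activates the MET receptor) at 10 ng/ml, and the last overnight with interferon gamma (IFNg) at 200 ng/ml. Each treatment had 1 m6A immunoprecipitation (IP) library and 1 input library, 8 in all, no untreated sample was analysed here, and no difference below has a replicate check or a p-value.

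The deposited expression value is a rank within the treatment, written as a percentile (100 is the top). Because ranks carry no amounts, no fold change is given, and sequencing depth is unknown. Whether it was formed per transcript length, and from the IP, the input or both, was not given in the sources used here. A gene is therefore compared with itself across treatments. Gene models of lowest rank share 1 value, or floor, of 18.4 with IFNg, 20.4 with HGF, 32.7 with heat shock and 45.5 with UV, and for comparisons lower values were raised to the highest floor. Of 10 hepatocyte markers, 8 were at the floor after UV, and TTR alone reached percentile 60 in any treatment. ALB lay at 45.5, 57.6, 24.9 and 22.3 after UV, heat shock, HGF and IFNg, and of 5 cholangiocyte markers 3 reached 60. KRT7 lay between 99.2 and 99.8, KRT19 between 58.8 and 79.2 and SOX9 between 43.7 and 61.0, while EPCAM and CFTR did not pass 50.2. None of 5 blood-cell markers reached 60. Of 5 fibroblast and endothelial markers 1 did, COL1A1, at 64.7, 60.7, 83.6 and 80.9 after UV, heat shock, HGF and IFNg. With most hepatocyte markers low and KRT7 near the top, the cultures are called by their label only.

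Promoter sequences are shown first because the interferon-linked members all stood highest after IFNg. RefSeq promoters (GRCh38.p14, 250 bases before to 50 after a start site) were matched by symbol for 8 of the 10 genes, 11 promoters in all, and PARP4 and PARP10 had none in the table. The search covered 2 motifs on both strands, namely the interferon-stimulated response element ISRE, as GAAANNGAAA, and the gamma-activated site GAS, as TTCNNNGAA. ISRE letters occurred in 3.57% of 35116 promoters of this length and GAS letters in 7.66%. The excerpts below run 5′ to 3′ on the gene's own strand, from 80 bases before the start site through its first 20 bases, with motif matches in capitals.

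DTX3L, chr3:122564258-122564357, plus strand: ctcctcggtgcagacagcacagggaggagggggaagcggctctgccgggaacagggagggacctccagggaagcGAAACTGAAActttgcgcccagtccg
PARP14, chr3:122680759-122680858, plus strand: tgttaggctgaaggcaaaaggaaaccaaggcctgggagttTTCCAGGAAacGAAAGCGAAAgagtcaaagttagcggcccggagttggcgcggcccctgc
PARP12, chr7:140062932-140063031, minus strand: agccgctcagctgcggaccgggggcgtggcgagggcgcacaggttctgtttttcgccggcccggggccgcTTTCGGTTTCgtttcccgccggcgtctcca
PARP1, chr1:226408074-226408173, minus strand: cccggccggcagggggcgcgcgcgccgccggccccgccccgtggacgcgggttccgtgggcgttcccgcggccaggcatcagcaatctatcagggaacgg

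All 4 interferon-linked members with a promoter in the table held the ISRE letters, and none of the other 4 members did. The copy in DTX3L begins 6 bases before its start site. The same copy, read from the other strand, begins 41 bases before a start site of PARP9, and the start sites of this divergent pair lie 38 bases apart. PARP9 had a second promoter in the table, without a match. In PARP14 the ISRE letters begin 29 bases before the start, with a GAS match 2 bases upstream and no overlap between them. The PARP12 copy begins 10 bases before the start. GAS letters were also found in PARP2, 154 bases before its start and outside the excerpt length shown. PARP1 is shown as a member with neither motif. These are matches of letters, and no binding was measured here.

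All 5 interferon-linked members stood higher after IFNg than after every other treatment, by at least 13.9 percentile points. The DNA damage PARPs did not: PARP1 kept its place near the top of the ranking, PARP2 lay lower after HGF and IFNg than after UV and heat shock, and PARP3 was lowest after heat shock. A gene was called higher or lower after a treatment when it lay 10 or more points beyond each of the other 3. A filter kept the 12624 gene models with a percentile of 60 or more in some treatment. All 10 members passed it, and all 10 would also have passed without IFNg. By this rule 5 of 10 members were called higher after IFNg, all of them interferon-linked, against 3.39% of the gene models past the filter. No member was called lower after IFNg (3.02% of gene models). The plot of percentiles by treatment shows the 3 groups of genes.

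**Figure D1:**
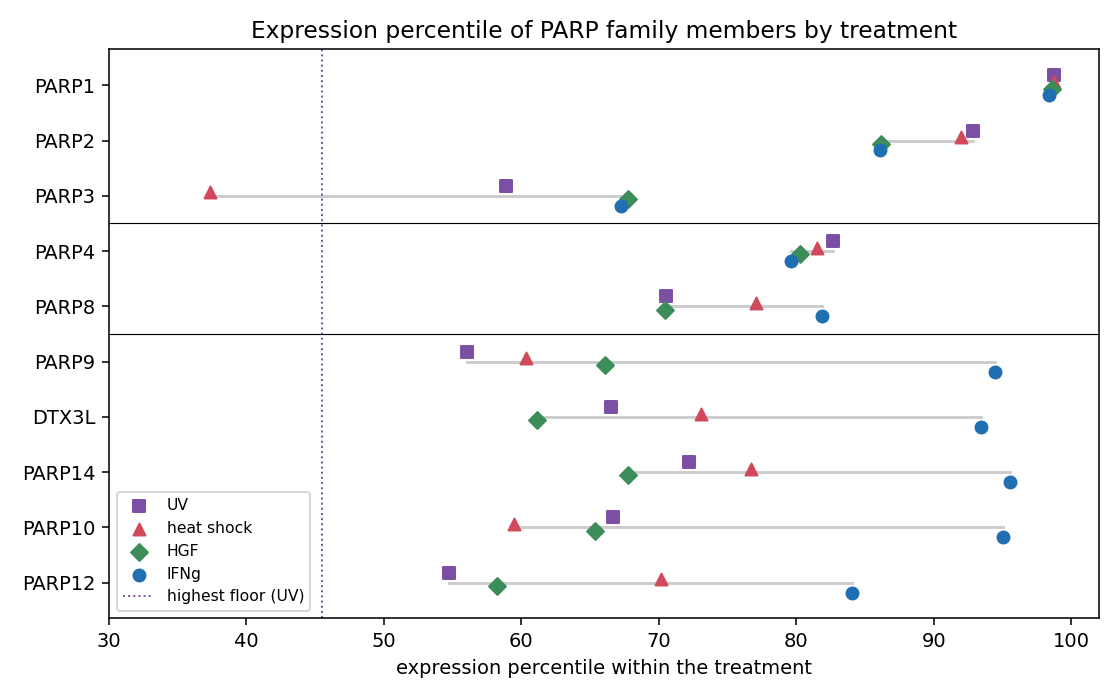
Expression percentile within the treatment (x axis) for the 10 genes, with 1 marker per treatment and a grey line over each gene's range; the dotted line is the UV floor at 45.5, and horizontal rules part the DNA damage PARPs, PARP4 with PARP8, and the interferon-linked members. The IFNg markers of PARP9, DTX3L, PARP14 and PARP10 lie between 93.4 and 95.6, to the right of all their other markers.

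PARP9, an enzyme with macrodomains that works in a complex with DTX3L, had the largest shift of the 10 against the median of the other treatments. Above the next highest treatment, its 28.4 points were matched by PARP10. Its percentile was 56.1 with UV, 60.3 with heat shock, 66.0 with HGF and 94.4 with IFNg. In ranks from the top this is position 11389, 10282, 8803 and 1447 of 25918. The IFNg shift was 34.1 points, larger than in 99.4% of gene models past the filter. The 3 other treatments spanned 9.98 points.

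DTX3L, the E3 ligase partner of PARP9, was at 66.5 with UV, 73.0 with heat shock, 61.1 with HGF and 93.4 with IFNg. Its IFNg shift was 26.9 points, and the treatments other than IFNg spanned 11.9. The deposited models of PARP9 (chr3:123729461-123766114, minus strand) and DTX3L (chr3:123765956-123775968, plus strand) overlap by 159 bases. Coordinates of gene models are printed as deposited, on a build other than the GRCh38 of the sequences above, and no source used here says whether reads were assigned by strand. The order of the other treatments differed within the pair: UV was lowest for PARP9 and HGF for DTX3L. The mean absolute difference between the pair over the 4 treatments was 7.26 points, compared with 3.20 between PARP9 and PARP10 and 4.53 between DTX3L and PARP14.

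PARP14, a large macrodomain enzyme that adds single ADP-ribose units, lies 106393 bases beyond DTX3L (chr3:123882362-123932377, plus strand). It was at 72.2 with UV, 76.7 with heat shock, 67.8 with HGF and 95.6 with IFNg, the highest IFNg percentile of the interferon-linked members. Its shift of 23.3 points was the smallest of these 5, and its values after UV, heat shock and HGF were also the highest of the 5.

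PARP10, which also adds single ADP-ribose units (chr8:145130700-145132623, minus strand), was at 66.7, 59.5, 65.3 and 95.1 after UV, heat shock, HGF and IFNg. Its shift was 29.7 points, and 16.8 with the GC correction described below. The second deposited PARP10 model, which is longer, gave 61.5, 55.2, 71.0 and 95.9. Both models were highest after IFNg, by 28.4 points above the next treatment in the model used.

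PARP12, a zinc finger member (chr7:139370018-139409990, minus strand), was the interferon-linked gene with the lowest IFNg percentile. It was at 54.8 with UV, 70.1 with heat shock, 58.2 with HGF and 84.0 with IFNg. The values without IFNg spanned 15.4 points, the widest such range of the 5, and the IFNg value lay 13.9 points above heat shock. This call was lost at a distance of 20 points, when the rule required a 2-fold difference in rank from the top, and under the correction for GC content described below, where the shift was 23.5 points in place of 25.8.

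PARP1, the most abundant of the nuclear PARPs in textbook accounts (chr1:224615015-224662424, minus strand), was at 98.7 with UV, 98.7 with heat shock, 98.6 with HGF and 98.4 with IFNg. Its rank from the top ran from 335 after UV to 425 after IFNg, a range of 0.347 points. PARP2, which shares its role at single-strand breaks (chr14:19881613-19895903, plus strand), was at 92.8, 91.9, 86.2 and 86.1 in the same order. Its UV and heat shock values lay together, about as far above HGF as above IFNg. The IFNg shift was -0.34 points for PARP1 and -5.88 points for PARP2. Neither could have been called higher after IFNg, since the rule needs the other values to be at 90 or below, which held for 71.2% of gene models past the filter.

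PARP3 (chr3:51951401-51957923, plus strand) gave the only other call. It was at 58.8 with UV, 37.4 with heat shock, 67.8 with HGF and 67.2 with IFNg, so its heat shock value was below the UV floor and was raised to it. Even so it lay 13.3 points under the UV value, and PARP3 was called lower after heat shock. That is 1 of 10 members, against 3.98% of gene models called lower and 2.87% called higher after heat shock, where no member was called higher. After the GC correction its heat shock shift was -9.85 points in place of -21.7, and the call was lost.

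UV is the treatment that damages DNA directly, so the DNA damage PARPs were read there too. No member was called higher after UV (1.93% of gene models) or lower (2.17%). Against the median of the other 3, PARP1 lay 0.104 points higher, PARP2 6.65 points higher, and PARP3 had a shift of -8.37 points. With the correction for GC content described below these UV shifts became -1.27 for PARP1, which turned its direction, 1.20 for PARP2 and -1.07 for PARP3. Only PARP3, PARP4, PARP8 and PARP12 had room for a higher call after UV. No member was called after HGF either, against 1.57% of gene models higher and 1.39% lower.

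PARP4, the PARP of vault particles (chr13:23893069-23984948, minus strand), was at 82.6 with UV, 81.5 with heat shock, 80.2 with HGF and 79.6 with IFNg, a range of 3.03 points. PARP8, one of the less studied members (chr5:49998570-50173933, plus strand), was at 70.5, 77.1, 70.4 and 81.9 in the same order. Its IFNg value was the highest but lay only 4.80 points above heat shock, so it was not called. With the GC correction it was called, at a shift of 18.3 points.

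As groups, the interferon-linked members had a median IFNg shift of 26.9 points (range 23.3 to 34.1), and the DNA damage PARPs one of -0.34 (range -5.88 to 8.37). The ranges did not overlap, and the medians differed by 27.3 points. The median of the treatments other than IFNg was already 98.7 for PARP1 and 91.9 for PARP2. The top of the scale therefore left neither gene room for a shift of 23.3 points. The DNA damage median of -0.34 is the shift of PARP1 itself. Only PARP3, from a median of 58.8, had room to reach the interferon-linked range, and its shift was 8.37 points. The gap between the groups thus cannot show how PARP1 and PARP2 responded. Over all gene models past the filter the median shift was -0.18, with a 5th to 95th percentile range of -15.9 to 17.4. The groups were formed from known roles that include the interferon response, so their order is not independent support for that role. The distribution of shifts places the interferon-linked members in its upper tail.

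**Figure D2:**
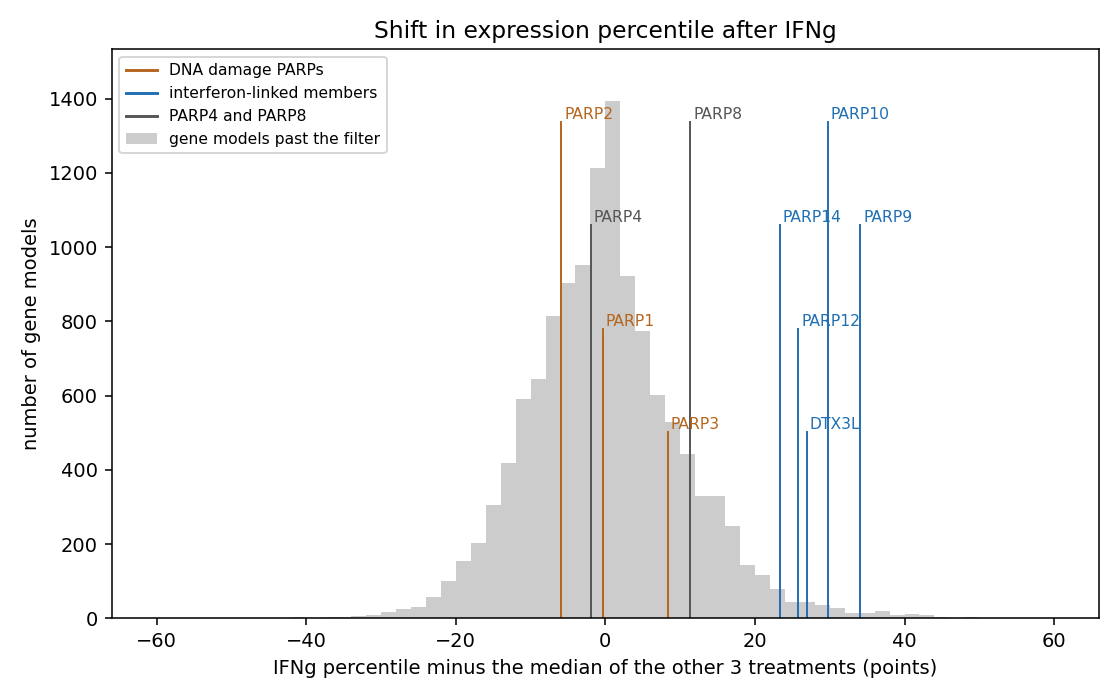
Number of gene models past the filter (y axis, grey bars of 2 points) by IFNg percentile minus the median of the other 3 treatments (x axis), with a line for each of the 10 genes whose height carries no value. The 5 interferon-linked members lie from 23.3 to 34.1 points, and PARP1, PARP2, PARP3 and PARP4 lie within the bulk of the models.

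GC content moved with the treatments across the whole table. A transcript GC value was found for 88.2% of gene models past the filter, and its rank correlation with the IFNg shift across these models was 0.681 (11131 models from the same libraries, so not independent). With the mean of IFNg and HGF minus the mean of UV and heat shock the correlation was 0.718, so the trend was not particular to IFNg. Between treatments, rank correlations were 0.894 for UV with heat shock and 0.888 for HGF with IFNg. They were 0.664 to 0.789 for the other pairs. The members span the range of GC content: PARP10 at 66.9% GC was higher than 98.6% of models, and PARP8 at 35.6% was higher than 2.51%. When the median of models of like GC was subtracted in each treatment, the IFNg shift became 39.9 points for PARP9, 31.6 for DTX3L, 29.2 for PARP14, 23.5 for PARP12 and 16.8 for PARP10. It became 1.67 for PARP4, 1.07 for PARP3, -0.75 for PARP2 and -0.43 for PARP1. The number of members called higher after IFNg was again 5, with PARP8 in place of PARP12, against 2.31% of gene models under the correction. Under it PARP10 was also called lower after HGF (shift -11.7).

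**Figure D3:**
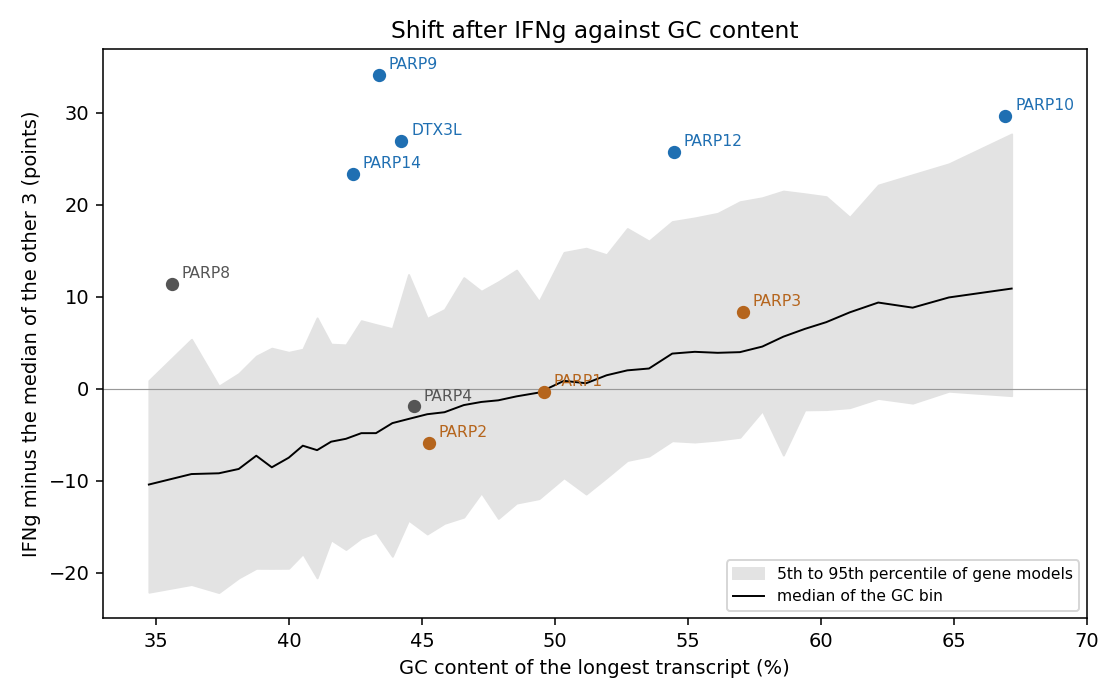
IFNg percentile minus the median of the other 3 treatments (y axis, points) against GC content of the longest transcript (x axis, percent); the black line is the median and the grey band the 5th to 95th percentile of gene models in 40 GC bins. PARP1 to PARP4 lie inside the band, while the 5 interferon-linked members and PARP8 lie above it.

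The deposited table listed 38 m6A peaks for the members over the 4 treatments, and 7 of the 10 had at least 1. PARP2, PARP3 and PARP12 had none. Peaks of a gene within 100 nt of each other were joined, which gave 19 sites: 14 in interferon-linked members, 2 in PARP1 and 3 in PARP4 and PARP8. A peak was listed for 6 members with IFNg (27.8% of gene models past the filter), 5 with HGF (42.2%), 6 with heat shock (43.9%) and 6 with UV (54.5%). By the authors' segment labels 29 peaks lay in coding sequence (CDS), 6 around the stop codon, 2 near the transcript start and 1 in the 3′ UTR. The coding share was 76.3% of the members' peaks and 42.0% of all labelled peaks in the table. A site counts once for each treatment that lists it, and PARP14 alone held 13 of the 38 peaks. The share also depends on the PARP10 model, since the longer one has all its peaks labelled coding. Scores are an enrichment measure of the authors, with a formula not given in the sources used here. Median scores were 4.07 for UV peaks and 3.01 for IFNg peaks, so scores are read as percentiles among the peaks of the same treatment. The map of peaks shows their positions.

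**Figure D4:**
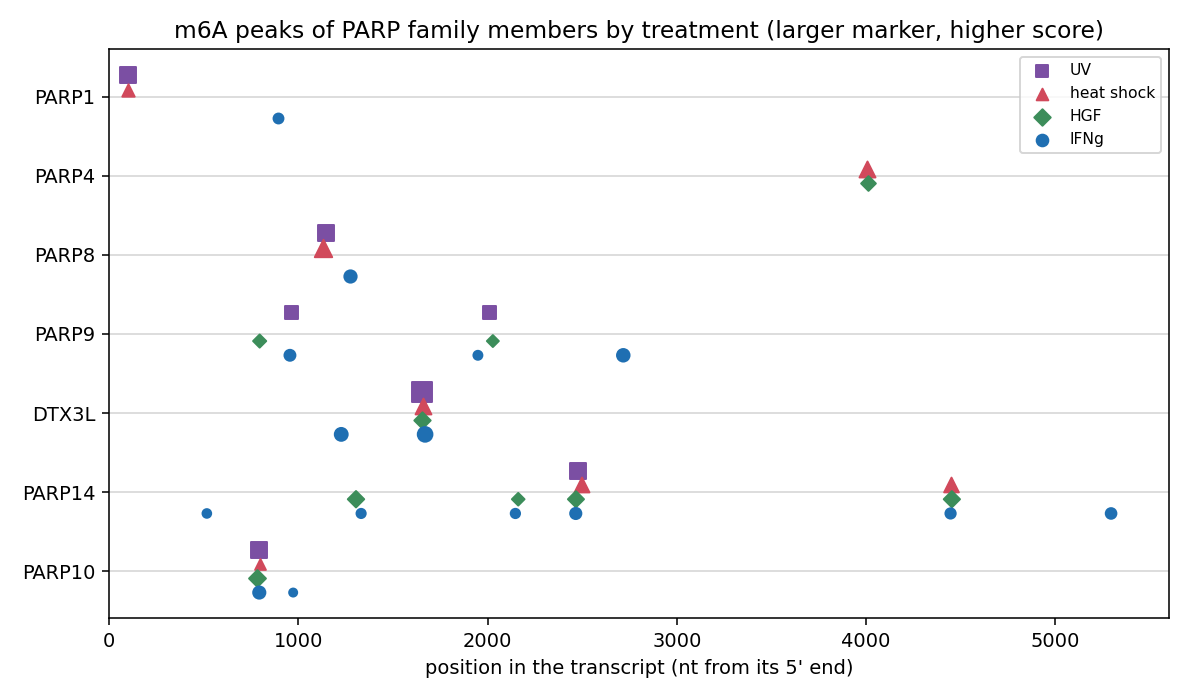
Position of each listed m6A peak in the transcript (x axis, nt from the 5′ end) for the 7 members with a peak, with 1 marker shape per treatment and a larger marker for a higher score. DTX3L, PARP14 and PARP10 each have 1 place where the markers of all 4 treatments stack, and PARP14 has 6 IFNg markers.

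To show what the coding sites look like, sequence was read from GENCODE 29 transcripts (GRCh38) that match the exon number and exon length of a peak. A transcript was matched for 5 members (PARP1, PARP4, PARP8, PARP9 and PARP14), which gave 14 coding windows of 101 nt centred on a site. GGAC was present in 7 of 14 windows (50%). It occurred in 37.6% of coding windows of this length over the longest transcripts of all genes, and in 32.8% of the 183 windows that tile these 5 coding sequences. Of the 14 site windows, 3 with GGAC are printed, for sites listed in 2 or more treatments, in transcript sense, with GGAC in capitals.

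PARP14 site near position 2477, chr3:122700922-122701022, plus strand: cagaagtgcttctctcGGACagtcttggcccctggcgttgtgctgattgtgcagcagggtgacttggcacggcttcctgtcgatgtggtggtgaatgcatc
PARP9 site near position 1996, chr3:122540524-122540624, minus strand: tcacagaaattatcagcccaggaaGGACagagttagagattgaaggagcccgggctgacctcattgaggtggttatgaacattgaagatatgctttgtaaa
PARP8 site near position 1139, chr5:50794960-50795060, plus strand: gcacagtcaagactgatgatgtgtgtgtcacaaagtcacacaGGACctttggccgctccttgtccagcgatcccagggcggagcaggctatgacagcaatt

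The nearest GGAC adenosine lay 32 nt from the centre in PARP14, 24 nt in PARP9 and 6 nt in PARP8. The PARP9 centre is a mean of peaks at 1949 with IFNg, 2011 with UV and 2028 with HGF, so the distance differs from peak to peak. A window without GGAC can hold other forms of the m6A context, which were not searched.

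PARP14 had the most peaks: 1 with UV, 2 with heat shock, 4 with HGF and 6 with IFNg. Its central site in exon 6 was listed in all 4 treatments, at positions 2466 to 2499. The score rank there was 80.1 with UV, 72.7 with heat shock, 46.1 with HGF and 54.3 with IFNg. Peak lists differ in length, so scores were also ranked among the 2925 sites listed in all 4 treatments, which gave 53.9, 56.4, 21.0 and 42.3 in the same order. A site at 4446 to 4453 in exon 14 was listed after heat shock, HGF and IFNg but not after UV. Sites at 1305 to 1332 and 2147 to 2162, both in exon 6, were listed after HGF and IFNg. Those at 517 in exon 4 and at 5294 around the stop codon were listed after IFNg alone, with score ranks of 12.3 and 46.6. After IFNg, 37.7% of gene models within 5 percentile points of PARP14 had any peak.

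PARP9 had 2 peaks with UV, none with heat shock, 2 with HGF and 3 with IFNg. A site in exon 8, at 1949 to 2028, was listed after UV, HGF and IFNg. The exon 4 site at 956 to 963 was listed after UV and IFNg, and a separate peak at 796 in that exon after HGF. The peak at 2717 around the stop codon, at a score rank of 72.6, was listed after IFNg only.

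DTX3L had a site in exon 3, at 1654 to 1670, in all 4 treatments. Its score rank was 93.4 with UV, 82.3 with heat shock, 48.5 with HGF and 89.8 with IFNg. Among sites listed in all 4 treatments the ranks were 80.8, 68.8, 23.0 and 84.5, so HGF was lowest on both scales and the order of UV and IFNg differed. A second peak at 1227 in the same exon was listed after IFNg only, at a score rank of 75.7. PARP10 had a site at 783 to 797 in exon 4 in all 4 treatments, with score ranks of 75.2, 27.9, 52.7 and 68.3 in the order UV, heat shock, HGF and IFNg. Among sites listed in all 4 treatments these became 46.8, 12.9, 26.9 and 57.3, so heat shock was lowest on both scales. Its second peak, at 973 after IFNg only, had a score rank of 0.284, near the lowest the table lists.

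PARP1 had a peak at position 99 after UV and at 100 after heat shock, both near the transcript start, with score ranks of 81.0 and 45.5. After IFNg it had 1 peak elsewhere, at 895 in exon 6, and after HGF none. UV and IFNg therefore had no PARP1 site in common, while its percentile differed by at most 0.347 points over the treatments. At the rank of PARP1, 66.7% of like-ranked gene models had a peak with UV, 57.7% with heat shock, 46.6% with HGF and 37.1% with IFNg. PARP2 had no peak although 68.4% of gene models ranked like it had one after UV, and 42.0% after IFNg. For PARP12 the like-ranked shares were 21.7% with UV, 43.8% with heat shock, 25.6% with HGF and 41.3% with IFNg.

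PARP4 had 1 site, at 4002 to 4008 in its exon 31 of 1080 nt, listed after heat shock and HGF. PARP8 had a site at 1131 to 1147 in exon 12 after UV and heat shock, with score ranks of 77.8 and 92.1. After IFNg its peak lay at 1273 in the same exon, 126 nt beyond the UV peak, so whether these are separate sites depends on the joining distance.

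Over the interferon-linked members, peaks numbered 5 with UV, 4 with heat shock, 8 with HGF and 13 with IFNg. The table as a whole went the other way, with 13307, 9803, 9111 and 5280 peaks. The share of the interferon-linked members was thus 0.376, 0.408, 0.878 and 2.46 per 1000 peaks. The number of these genes with a peak was 4, 3, 4 and 4 in the same order. PARP14 alone held 6 of the 13 peaks with IFNg, at scores from 2.22 to 3.12, where the lowest score listed is 2. Of the 19 member sites, 7 (36.8%) were listed after IFNg alone, 5 of them in interferon-linked members, compared with 5.22% of the 17764 sites in the table. Of these 7, the PARP10 site also has a heat shock peak in the longer gene model. With peaks within 200 nt joined, the PARP10 and PARP8 sites of the 7 merge with sites listed after other treatments too. The share over the table at that distance was not computed. After HGF alone 1 of the 19 member sites (5.26%) was listed, compared with 1599 of the 17764 sites in the table. That site, in PARP9, also merges with a neighbour at 200 nt. No member site was listed after UV alone or after heat shock alone, compared with 3730 and 900 of the 17764 sites. The interferon-linked members also ranked higher after IFNg, as given above. The part of rank in these counts was not tested.

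The genes that handle ADP-ribose or its substrate were read from lists chosen with earlier results of these data known. Of 8 other PARP family genes, 6 passed the filter, and none was called in any treatment. Their median IFNg shift was -0.75 points. They include TIPARP and the tankyrases TNKS and TNKS2. ZC3HAV1, the antiviral zinc finger PARP and itself interferon-stimulated in many cells, was at 82.3, 87.7, 86.0 and 92.0 after UV, heat shock, HGF and IFNg, a shift of 5.99 points without a call.

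Of 14 genes that remove or read ADP-ribose, 10 passed the filter and 1 was called higher after IFNg, where 3.39% of gene models were. That gene, ADPRHL2, encodes the hydrolase that takes ADP-ribose off serine. It was at 69.2, 65.4, 62.8 and 83.8 in the order UV, heat shock, HGF and IFNg. With the GC correction it was not called, at a shift of 7.49 points in place of 18.3. The list's median IFNg shift was -1.21 points.

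All 20 break repair partners of PARP1 and PARP2 passed the filter. Of these, 2 were called lower after IFNg (3.02% of gene models) and 1 lower after UV (2.17%). C4orf27, the symbol in the table for HPF1, which joins PARP1 and PARP2 to direct ADP-ribose to serine, was called lower after IFNg at 80.7, 80.7, 68.7 and 55.1. LIG4, the ligase of end joining, was called lower after IFNg at 71.2, 74.2, 62.0 and 50.7. HGF was the next lowest value for both genes. C4orf27 was also called under the GC correction (shift -14.6 in place of -25.6) and LIG4 was not (-9.45 in place of -20.5). MUTYH, a DNA glycosylase, was called lower after UV, where it was at the floor of 45.5, against 72.0 with IFNg, 76.3 with HGF and 56.6 with heat shock. It was called under the GC correction as well. The list's median IFNg shift was -0.43 points, and none of the 20 was called higher after UV or IFNg.

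Of 14 interferon receptor and signalling genes 13 passed the filter. Called higher after IFNg were 3 of these, against 3.39% of gene models: IRF1, IRF9 and STAT2. IRF1, a transcription factor induced by IFNg, lay between 57.7 and 68.7 in the other treatments and at 98.8 after IFNg. IRF9 and STAT2, which act together at ISRE sequences, reached 94.0 and 94.2 from at most 66.2 and 74.1. All 3 were called under the GC correction too, and the list's median IFNg shift was 2.72 points. SOCS1, which did not pass the filter, was at 58.4 after IFNg and at most 45.5 elsewhere. Of 12 genes of NAD supply and use 9 passed the filter, with a median IFNg shift of 6.02 points and no call after IFNg or UV. The GC correction added calls in these lists, among them JAK2 (shift 10.8 in place of 1.01) and NAMPT (13.3 in place of 2.26) higher after IFNg, and SOCS3 lower after UV (-13.2 in place of -23.1).

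The other 5 calls in these lists fall outside the naming rule and were picked out after their values were seen. After heat shock C6orf130, NTHL1 and QPRT were called lower, where 3.98% of gene models were. After HGF JAK2 and NAMPT were called lower, where 1.39% of gene models were. C6orf130 and NTHL1 stood at 63.9 and 62.5 after heat shock and at 76.4 or more and 75.9 or more elsewhere.

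The gene models closest in pattern were sought outside the 10 members and among models past the filter. They are those with the smallest mean absolute difference in percentile over the 4 treatments. For PARP9 they were NLRC5 (2.11 points), the transactivator of MHC class I genes, IRF9 (3.47) and the complement factor CFB (3.51). The member PARP10, at 3.20, lay nearer to PARP9 than IRF9 and CFB. For PARP14 they were the complement protease C1S (2.23), the antiviral enzyme OAS3 (2.66) and HEG1 (3.00). DTX3L lay closest to IFIT2 (3.21), the chemokine CXCL2 (3.94) and STAT2 (3.99). PARP1 lay closest to MRFAP1 (0.078), the replication helicase subunit MCM3 (0.127) and COX4I1 (0.142), but 884 gene models were within 3 points of it, compared with 1 for PARP9, 3 for PARP14 and 0 for DTX3L.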

How the data were processed

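m6A-IP and input libraries from 4 treatments of cultures labelled HepG2 were summarised by the authors in 1 deposited table, with samples grouped by the labels. Its expression value is a fraction from 0 to 1, per the file headers an expression quantile, and its peak value is a score, per the file headers the authors' own. The names of the aligner, peak caller, annotation and build are not given in the sources used here. No member of the 10 started within 1000 bases of its GRCh38 start, so deposited coordinates are printed as they are, counted from 1, and never joined to GRCh38 ones.

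From these values percentiles, floors, calls (10 points, percentile 60 or more in any treatment), joined peaks (100 nt) and shifts were computed with Python 3.11.15, pandas 2.3.3 and NumPy 2.4.6, tested on simulated data. GC content came from the longest GENCODE 29 transcript of a symbol, older symbols included, in 40 bins. Transcripts were matched to models by peak exon number and length, with any length difference placed at the 5′ end. Named genes were all members, list genes called after IFNg or UV (at most 5 a direction), and the 3 nearest patterns outside the members to PARP9, PARP14, DTX3L and PARP1. Members, groups and lists were chosen with earlier results of these data known. Depth is unknown, and without replicates no error or p-value is given. Alternatives changed the floors, distance, reference, rank scale, GC correction, gene model, filter, peak score and joining distance.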

Additional observations from a re-analysis of the deposited data

How the results depend on the processing

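Of 54 alternative values 51 kept their direction and stayed within 1.5 times the main value, or stayed at 0. Many of the 51 are counts of 0 that stayed 0, for members called lower after IFNg and higher or lower after UV. A count of 0 has no direction or ratio, and only 4 members had room for a higher call after UV. The choice of gene model could change PARP10 alone. The number 51 is therefore no measure of stability. The other 3 values moved. With a distance of 20 points 3 members were called higher after IFNg in place of 5, namely PARP9, PARP10 and DTX3L, against 1.01% of gene models in place of 3.39%. Against the median of the other 3 treatments 1 member, PARP12, was called lower after UV in place of 0, where 13.2% of gene models were called. With peaks of score 3 or more, 3 members had a peak after HGF in place of 5. The number of members called higher after IFNg was otherwise 4 to 6: a 2-fold difference in rank gave 4, without PARP12 (2.29% of gene models), and the median of the other 3 gave 6, with PARP8 (15.4%). Joining peaks within 50 nt or 200 nt gave 20 and 16 sites in place of 19. The difference in median IFNg shift between the interferon-linked and the DNA damage groups ran from 27.3 to 29.6 points over its alternatives. The limit that the top of the scale sets on PARP1 and PARP2, given above, applies here too. No paired analysis was possible because each treatment had 1 library of each kind and no result comes from a test. The ranks hold no depth, so what depth limits cannot be read from them, and the higher floor after UV hides differences among low genes there.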

Other observations

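The 2 deposited PARP10 models give different segment labels to what look like the same peaks. In the model used, the site listed in all 4 treatments lies at 783 to 797 and is labelled around the stop codon. In the longer model a site listed in all 4 treatments lies at 962 to 976 and is labelled coding sequence. The longer model also has a second site after heat shock, at 1149, and after IFNg, at 1155, and 1 more peak at 1969 after UV, all in coding sequence. The IFNg peak of lowest score has 2.004 in the model used and 2.006 in the longer one.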
